A study of Mus musculus with 9 samples.

Results

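CD4-enriched spleen T cells of CD69-/- mice were compared with those of wild-type mice after both had been activated in culture. Both groups carried the strain label C57BL/6J and differed in the labels only in genotype, CD69-/- against wildtype. The cells were grown for 72 h with beads coated with antibodies against CD3 and CD28, at 10 cells per bead, and no antibody against CD69 was added to either group. Each group had 3 arrays, so 6 of the 9 arrays of the series entered the comparison. The other 3 held wild-type cells given an anti-CD69 and a cross-linking antibody (each at a dilution of 1 in 200). They served to estimate the spread between arrays and entered the mean level by which probe sets were chosen and genes ranked. The members were all probe sets with exactly 1 gene symbol, 21789 of 35556, and they stood for 19938 genes. The arrays are labelled as biological replicates, but nothing states that separate mice gave the cells, so the p-values speak only of the spread among these samples. The labels describe neither the deleted stretch of Cd69 nor a test of the purity of the enriched cells.

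CD69 is a C-type lectin-like membrane protein that lymphocytes place on their surface within hours of activation. It binds the sphingosine 1-phosphate receptor S1P1 and takes it off the surface, which holds activated cells in lymphoid tissue, and it marks resident memory T cells and regulatory T cells. Beads with anti-CD3 and anti-CD28 stand in for antigen: CD3 transmits the signal of the T cell receptor, and CD28 adds costimulation. The comparison asks which transcripts of activated, CD4-enriched spleen cells differ between the genotypes.

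Values are log2 expression values, and a difference of 1 is a doubling. Array medians lay between 7.4 and 7.47. Across probe sets, r was 0.996 to 0.998 within a group and 0.994 to 0.996 between the groups. A gene was called at an adjusted p under 0.05 (limma, Benjamini-Hochberg over all 19938 genes). By that rule 15.1% of genes were called, 8.36% higher and 6.78% lower in CD69-/- cells, and these shares are the background for every count given here. The share differed with mean level, from 0.953% in the dimmest of 10 classes to 27.5% in the brightest. No list was set against genes of equal level, so a bright or dim list may differ from this background through its level. After median centring of the arrays the calls split into 2555 higher and 1071 lower, against 1667 and 1351 as deposited. A call of at least 1.5-fold was made for 1.15% of genes, 0.406% in the higher and 0.747% in the lower direction. The groups did not overlap at 33.2% of genes (17.3% higher, 15.9% lower), including 3011 of the 3018 called. The called differences were small: their median size was 0.25, the smallest was 0.11, and 8 genes rose and 18 fell by at least 2-fold. Sex-linked transcripts separated the groups fully. Xist, the transcript of the inactive X chromosome, was at 12.48, 12.57 and 12.71 in wild type and at 5.77, 6.02 and 6.26 in CD69-/- arrays, and 4 of the 9 measured genes of the Y chromosome were higher in CD69-/-. Sex and genotype therefore cannot be told apart in any difference below, on any chromosome. Cd4, the gene of the label, was at 11.92 to 12.02 in wild type and 12.31 to 12.39 in CD69-/- arrays. The defining genes of B cells, CD8 T cells and macrophages gave signal too, as described below. Cd8b1 was at 12.37 to 12.42 in wild type and 12.80 to 12.85 in CD69-/-. The B cell list averaged 11.78 to 11.82 in wild-type and 11.20 to 11.30 in CD69-/- arrays. Ranked by mean level, the brightest of 10 classes of genes began at 10.88. The values thus describe a mixture of cells rather than CD4 T cells alone, and the share of each cell type was not measured.

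Cd69 and the genes beside it came first. Cd69 stood at 12.03, 12.12 and 12.37 in the wild-type arrays and at 9.65, 9.49 and 9.63 in the CD69-/- arrays. It fell by 2.58 on the log2 scale, in all 3 arrays of the deleted genotype (SE 0.078, adjusted p = 1.22e-08, limma). No source used here says whether its probes lie inside the deleted stretch, and a probe outside it would check nothing. Cd69 lies in the natural killer gene complex, a cluster of lectin-like receptor genes on chromosome 6, among Klrb1 genes (inhibitory and activating receptors of natural killer cells), the Clec2 genes that encode their ligands, and a group of myeloid lectins. Ordered along the chromosome, the 10 measured genes on each side of Cd69 held 8 called genes of 20 (40%), all 8 lower. Among the 8, Klrb1c, Clec1b and Clec9a were dim, with levels given below. Within 25 genes on each side, 8 of 50 were higher and 13 lower (42%), and within 50 genes 14 of 100 were higher and 14 lower (28%). The other 998 measured genes of the chromosome had 86 higher and 81 lower (16.7%).

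**Figure D1:**
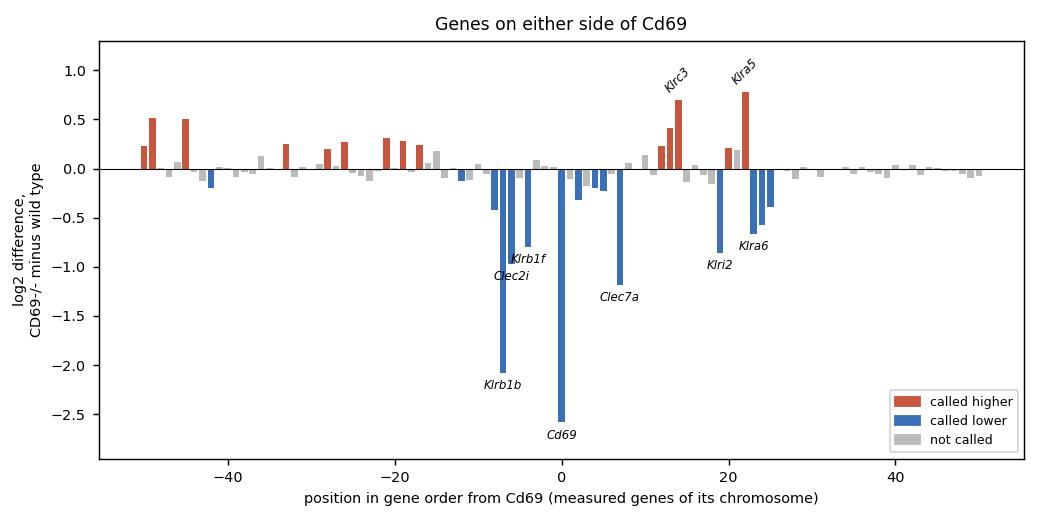
Log2 difference (CD69-/- minus wild type) of each measured gene within 50 places of Cd69 in the gene order of its chromosome; red bars were called higher, blue bars lower and grey bars not called (limma, adjusted p under 0.05). The 8 called genes within 10 places of Cd69 all point down, from Klrb1b at -2.08 to Clec1b at -0.20, and called genes of both directions lie further out.

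The neighbours did not all move. On one side, Clec2d, the gene next to Cd69 in the order and the ligand of a Klrb1 receptor, did not pass (11.23, 11.32 and 11.42 in wild type, 11.30, 11.32 and 11.40 in CD69-/-, groups overlapping). Klrb1b, an inhibitory receptor of natural killer cells 7 places away, was at 8.86, 8.95 and 8.72 in wild type and at 6.71, 6.76 and 6.83 in CD69-/-. It fell by 2.08 (SE 0.073, adjusted p = 4.15e-08), with no overlap between the groups. Clec2i, a lectin related to the Klrb1 ligands, was steady within each group, at 11.18, 11.16 and 11.19 against 10.21, 10.19 and 10.22, and fell by 0.97 (SE 0.036). Klrb1f, an activating receptor, fell by 0.80 and Klrb1c, the NK1.1 antigen, by 0.42. Clec2g (-0.09), which lies between Clec2i and Klrb1f, and Clec2e (0.08) and Clec2h (0.05), to either side of these called genes, did not pass. On the other side, the myeloid lectins Clec12a (-0.32), Clec1b (-0.20, a platelet receptor), Clec9a (-0.23, a dendritic cell receptor for dead cells) and Clec7a (-1.19, the receptor for fungal beta-glucan) fell. Clec2m (-0.10), Clec12b (-0.18) and Clec1a (-0.06), interleaved with them, did not pass. Klrb1c, Clec1b and Clec9a were dim, with wild-type means of 5.5, 5.3 and 5.1 and CD69-/- means of 5.1, 5.1 and 4.9. Olfactory receptor genes, a family with no known role in these cells, averaged 5.16 to 5.20. The values carry no detection call, so whether these 3 genes were expressed was not tested.

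Farther along lie the receptors shared by natural killer cells and effector T cells. Klrk1, which encodes NKG2D, rose by 0.41 and its cluster neighbour Klrd1, encoding CD94, by 0.23. Klrc3, of the NKG2 receptors that pair with CD94, rose by 0.69. Klri2 was lower, at 4.67, 4.75 and 4.58 in CD69-/- against 5.53, 5.55 and 5.48 in wild type. The Ly49 genes at the end of the cluster went in both directions, with Klra5 higher by 0.78 and Klra6, Klra8 and Klra3 lower by 0.66, 0.57 and 0.39. Klrc3, Klra5 and Klra8 were dim as well, with wild-type means of 4.9, 4.8 and 5.6 and CD69-/- means of 5.6, 5.6 and 5.0. Ly49 and Klrb1 genes are near copies of one another, so a probe set of these families may read more than 1 gene. Over the whole complex, 6 of 40 measured lectin-like genes rose and 14 fell, Cd69 included; without the dimmest genes these counts were 3 and 7. Natural killer cell genes as a list (18 measured, many of them also in the complex list) had 3 higher and 9 lower (5 lower without the dimmest genes), and their mean level was 7.74 to 7.80 in wild-type and 7.50 to 7.54 in CD69-/- arrays; its part in these results was not tested.

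Outside the X and Y chromosomes the largest rise without CD69 was that of Il21, and several genes of cytotoxic granules were among the 15 largest. Il21, the cytokine with which helper T cells act on B cells and CD8 T cells, was at 8.48, 8.5 and 8.48 in wild type and at 10.39, 10.22 and 10.28 in CD69-/-. The groups lay 1.81 apart (3.51-fold, SE 0.095, adjusted p = 8.23e-07). Gzmb, the granule protease that starts apoptosis in target cells, rose from 10.90, 11.08 and 10.99 to 11.99, 11.95 and 12.06. The other granule genes among the leading rises were Ctsw, a cathepsin of cytotoxic cells (10.66 to 10.71 in wild type, 11.60 to 11.66 in CD69-/-), and Cst7, an inhibitor of granule cathepsins (11.00 to 11.11 against 11.93 to 11.97). Sytl2, a partner of RAB27A in granule docking, rose by 0.84. Ctla2a (1.16) and Ctla2b (0.90), cysteine protease inhibitors first found in activated T cells, are near copies and were not separated with certainty.

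The other leading rises were of receptors, a transporter and secreted proteins. Il10, the inhibitory cytokine, was at 7.65, 7.70 and 7.70 in wild type and at 8.69, 8.45 and 8.74 in CD69-/- arrays, all 3 of which lay above wild type. Slc15a2, an importer of peptides, rose by 1.14, Bmpr1a, a receptor of bone morphogenetic proteins, by 0.99, and Igfbp4, which binds insulin-like growth factors, by 0.98. Cysltr2, a receptor of cysteinyl leukotrienes (0.86), Tnfrsf23, a decoy receptor of TRAIL (0.84), Cd200r4, an activating relative of the CD200 receptor (0.83), and Ust, a sulphotransferase of glycosaminoglycans (0.80), completed the 15 largest rises. SEs of all genes named by rule lay between 0.033 and 0.143. These genes were chosen among called genes, a choice that favours small SEs. The median SE over all genes was 0.048.

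**Figure D2:**
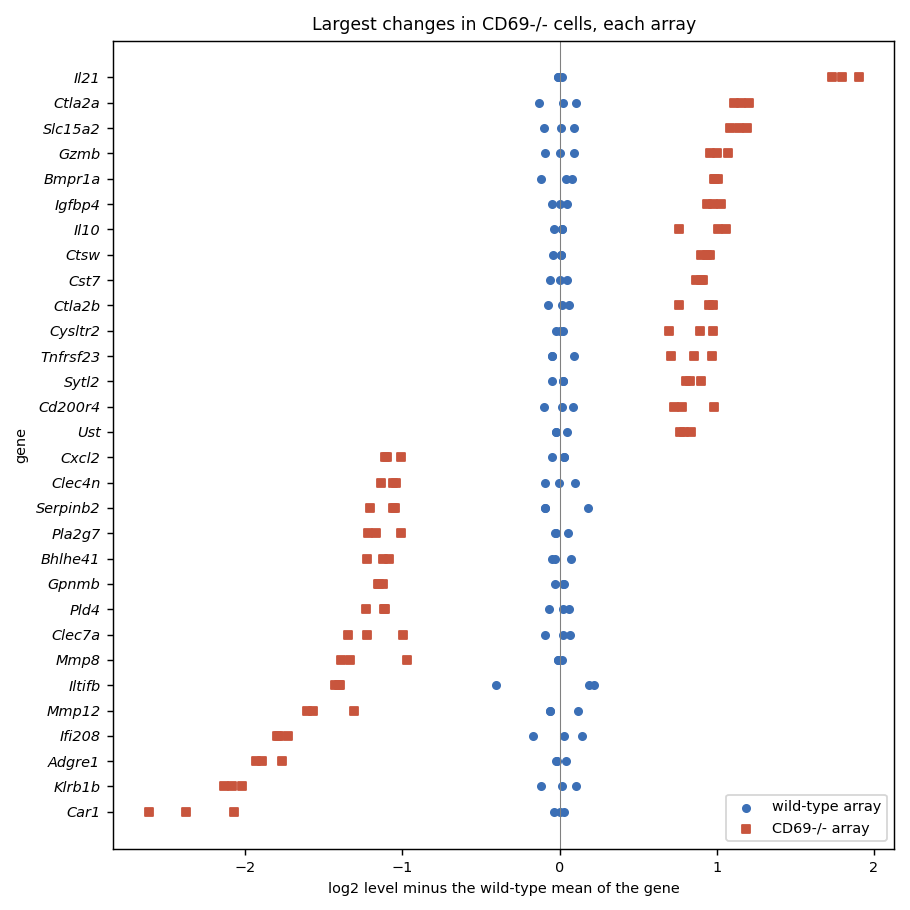
Log2 level of each array minus the wild-type mean of the gene, for the 15 genes that rose most and the 15 that fell most, among those called with groups apart (sex-linked and predicted genes, receptor segments, small RNA genes and Cd69 left out). Circles are wild-type and squares CD69-/- arrays; the squares lie on one side of the circles in every line, from Il21 at the top to Car1 at the bottom.

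The promoter stretches of the leading members are shown because their transcription answers to T cell receptor signals. NFAT and AP-1 are the factors that calcium and MAP kinase signals bring to cytokine and granzyme genes. The windows run from 250 bases before to 50 bases after the gene start (RefSeq, GRCm38.p6) and are written 5′ to 3′ along the gene's strand. Capitals mark the letters GGAAAA, the core that NFAT binds, or its reverse complement in Il21 (chr3:37232587-37232886, minus strand), and TGANTCA, the AP-1 site, in Gzmb (chr14:56262285-56262584, minus strand).
Il21: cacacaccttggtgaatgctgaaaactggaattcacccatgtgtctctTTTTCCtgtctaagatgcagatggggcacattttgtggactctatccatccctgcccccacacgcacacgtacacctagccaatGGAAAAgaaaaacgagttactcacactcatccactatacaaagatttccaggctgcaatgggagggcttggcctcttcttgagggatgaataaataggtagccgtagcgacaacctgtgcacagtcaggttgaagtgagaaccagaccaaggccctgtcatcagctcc
Gzmb: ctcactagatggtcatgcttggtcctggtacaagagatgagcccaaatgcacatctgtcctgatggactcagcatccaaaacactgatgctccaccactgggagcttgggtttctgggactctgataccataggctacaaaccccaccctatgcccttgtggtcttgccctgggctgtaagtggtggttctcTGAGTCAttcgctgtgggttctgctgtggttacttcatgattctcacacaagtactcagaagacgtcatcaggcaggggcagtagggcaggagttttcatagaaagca
Searched on both strands, GGAAAA was found in 12 of 33 windows of the secreted cytokine genes (36.4%) and in 9 of 27 windows of the granule genes (33.3%), against 23.4% of all 32851 windows. TGANTCA was found in 7 of the 33 (21.2%) and in 4 of the 27 (14.8%), against 7.81% of all windows. The cytokine list itself split, with 8 of 33 measured genes higher and 12 lower. Lists with falls and no rises held the letters too. GGAAAA was in 5 of 10 class II windows (50%) and 8 of 28 macrophage windows (28.6%), and TGANTCA in 2 of 10 (20%) and 6 of 28 (21.4%). These matches describe the sequence and do not show binding.

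After Cd69, the largest falls outside the X and Y chromosomes were those of Car1, Klrb1b (described above), Adgre1 and Ifi208. Car1, the carbonic anhydrase of red cells, was at 9.43, 9.47 and 9.49 in wild type and at 6.85, 7.09 and 7.39 in CD69-/-. The CD69-/- arrays differed among themselves and still lay far below every wild-type array (difference -2.35, SE 0.11). Adgre1, which encodes the macrophage antigen F4/80, was tight in both groups, at 9.84, 9.83 and 9.89 against 7.96, 7.92 and 8.09. Iltifb, a copy of the interleukin-22 gene, fell by 1.41 from 7.63, 8.23 and 8.26 to 6.61, 6.64 and 6.65; the probes of Iltifb and Il22 may not be told apart. The matrix proteases Mmp12 of macrophages (-1.49) and Mmp8 of neutrophils (-1.23) fell, as did Ifi208 of the HIN-200 DNA sensors (-1.77). Pld4, a nuclease of plasmacytoid dendritic cells and B cells (-1.15), Gpnmb, a glycoprotein of lipid-laden macrophages (-1.15), Pla2g7, the phospholipase that breaks down platelet-activating factor (-1.13), Clec4n, encoding dectin-2 (-1.08), and the neutrophil chemokine Cxcl2 (-1.07) had the same direction. Bhlhe41, a transcription factor of innate-like B cells and other leukocytes, fell by 1.14, and Serpinb2, a protease inhibitor of activated macrophages, by 1.10.

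Genes of other cell types moved with the genotype and give the frame for the lists below. In bulk RNA, fewer cells of a type and less RNA per cell cannot be told apart. All 24 measured B cell genes fell (median -0.53, against -0.01 over all genes), and their mean level was 11.78 to 11.82 in wild-type and 11.20 to 11.30 in CD69-/- arrays. Fcer2a, the low-affinity IgE receptor CD23, led with a fall of 0.97 (11.65, 11.62 and 11.69 in wild type, 10.65, 10.69 and 10.72 in CD69-/-). Vpreb3 (-0.89) and Spib, a transcription factor of mature B cells (-0.81), followed, and the defining genes Cd79a (-0.43), Cd79b (-0.26), Ms4a1 (-0.54) and Pax5 (-0.57) fell less. Among genes of antibody secretion 8 of 14 fell and 2 rose. Jchain, which joins IgA and IgM subunits, fell from 9.49, 9.40 and 9.34 to 8.46, 8.39 and 8.45, and the chaperone Mzb1 fell by 0.47. The list's 2 rises were of Irf4 (0.50) and Prdm1 (0.26). Without wild-type replicate 1, or without CD69-/- replicate 2, 5 members fell. All 3 measured constant regions fell, Ighg3 (-0.48), Igha (-0.40) and Ighm (-0.17). Of 17 measured variable segments of antigen receptors 15 were called (88.2%). The falls were of 8 immunoglobulin kappa segments, led by Igkv4-91 (-0.65). The rises were of 7 T cell receptor segments, led by Trgv1 (0.94) and Trdv2-2 (0.85) of the gamma-delta receptor.

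Genes of MHC class II presentation, which show peptides to CD4 T cells, fell in 12 of 13 cases. Their mean level was 12.27 to 12.31 in wild-type and 11.87 to 11.93 in CD69-/- arrays, and the median difference was -0.34. H2-Oa, a chain of the inhibitor of peptide loading in B cells, led the list at 11.68, 11.77 and 11.73 against 11.04, 11.05 and 11.02. Ciita, the master transactivator of the pathway, fell by 0.63 (11.00, 11.11 and 11.04 against 10.37, 10.45 and 10.43), H2-Eb2 by 0.61 and H2-Ob by 0.53. The classical chains fell less in log2 terms: H2-Eb1 by 0.34, H2-Aa by 0.28 and H2-Ab1 by 0.25, and Cd74, the invariant chain, fell by 0.20. Of the costimulatory ligands on presenting cells, Cd80 fell by 0.50 and Cd86 (-0.10) did not pass.

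Class II promoters are known for the S, X and Y boxes to which CIITA is recruited. The Y box holds the letters GATTGG, which were found on either strand in 6 of 10 class II windows, from 6 of 9 genes with a window, against 16.1% of all 32851 windows. In the B cell list 2 of 28 windows (7.14%) and in the macrophage list 5 of 28 (17.9%) held them. The stretches below are 86 bases each around GATTGG, in capitals with any reverse complement, 5′ to 3′ along the gene (RefSeq, GRCm38.p6). They come from H2-Oa (chr17:34092295-34092380, plus strand), H2-Eb2 (chr17:34325534-34325619, plus strand), H2-Ob (chr17:34238807-34238892, plus strand), H2-Eb1 (chr17:34305767-34305852, plus strand) and H2-Aa (chr17:34287827-34287912, minus strand).
H2-Oa: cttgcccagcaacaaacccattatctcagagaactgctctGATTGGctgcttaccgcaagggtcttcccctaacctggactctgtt
H2-Eb2: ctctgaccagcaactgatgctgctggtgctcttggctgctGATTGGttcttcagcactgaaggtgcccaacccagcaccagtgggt
H2-Ob: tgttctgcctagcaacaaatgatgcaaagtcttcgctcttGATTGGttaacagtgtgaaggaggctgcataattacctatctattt
H2-Eb1: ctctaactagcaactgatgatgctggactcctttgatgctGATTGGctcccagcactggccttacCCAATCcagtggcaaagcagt
H2-Aa: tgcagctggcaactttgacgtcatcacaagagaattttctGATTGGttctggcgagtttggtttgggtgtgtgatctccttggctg
The motif starts 44 bases before the gene start in H2-Oa, 101 in H2-Eb2, 58 in H2-Ob, 60 in H2-Eb1 and 49 in H2-Aa. In the other gene with a match, H2-DMa, it starts 199 bases before, and that stretch is not printed. A match is a description of the letters, and occupancy was not measured.

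**Figure D3:**
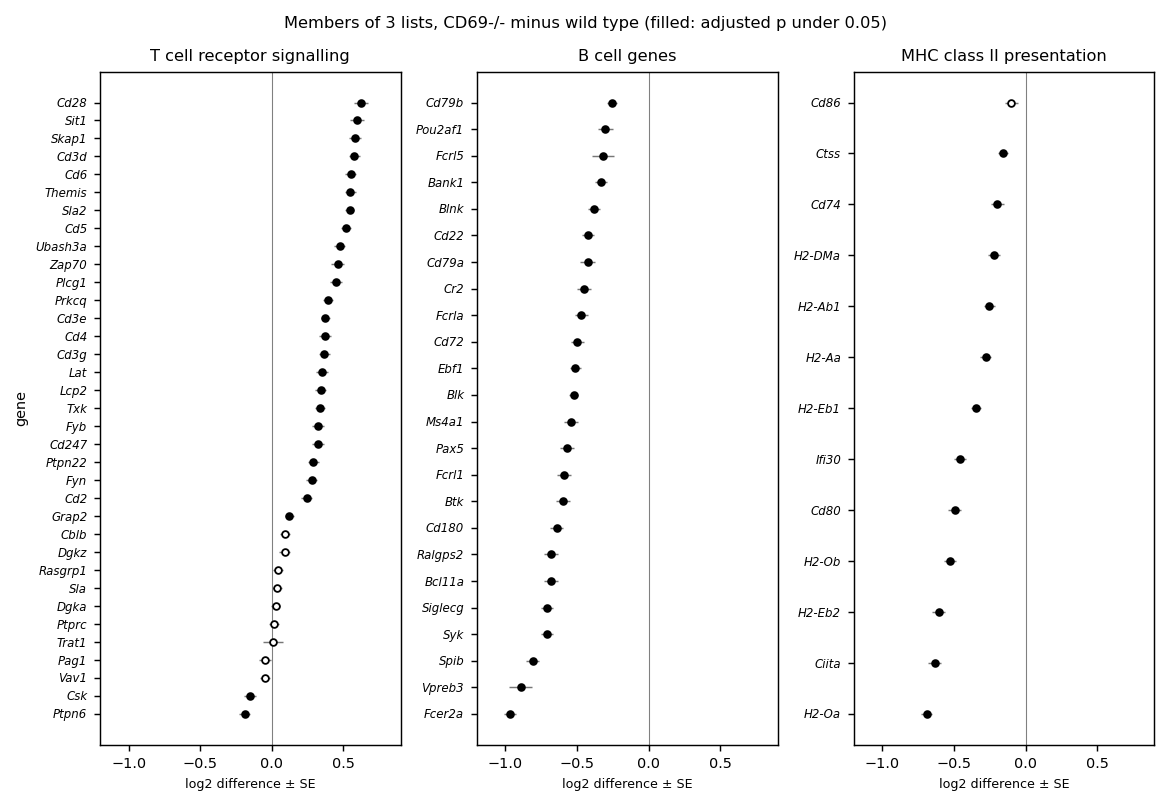
Log2 difference (CD69-/- minus wild type) with its SE for every measured member of the T cell receptor, B cell and MHC class II lists; filled points had an adjusted p under 0.05 (limma). Most T cell receptor members lie right of 0, up to Cd28 at 0.62, and all B cell and class II members lie left of 0, down to Fcer2a at -0.97 and H2-Oa at -0.69.

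Of 32 macrophage and monocyte genes 23 fell and 0 rose (median -0.38). The mean level of the list was 7.96 to 8.0 in wild type and 7.50 to 7.54 in CD69-/-. After Adgre1, Clec7a, Gpnmb and Clec4n the larger falls were those of Clec4e, encoding the mycobacterial sensor mincle (-0.82), and Lyz2, the lysozyme of myeloid cells (-0.76; 8.29, 8.21 and 8.12 against 7.70, 7.32 and 7.33). The defining receptors Cd14 (-0.47), Cd68 (-0.54), Csf1r (-0.38) and Mertk (-0.39) fell too. Tissue macrophage genes such as Vsig4 (-0.01), Timd4 (-0.05), Cd163 (-0.08) and Spic (-0.04) did not pass. Fc receptors and adaptors had 6 lower of 9 and 1 higher. Fcgr3, encoding CD16, fell by 0.64, the Fc receptor of IgM Fcmr by 0.53, and the signalling adaptors Tyrobp and Fcer1g by 0.54 and 0.49, while Fcer1a, the alpha chain of the IgE receptor, rose by 0.41 (7.20, 7.42 and 7.22 against 7.65, 7.77 and 7.64). Complement genes had 8 lower of 19 and 0 higher, with the anaphylatoxin receptor C3ar1 at -0.88, the integrin chain Itgam of complement receptor 3 at -0.88 and C1qb at -0.88, while C1qa (-0.16) did not pass.

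Other myeloid and blood lineages gave smaller lists of falls. Dendritic cell genes had 8 lower and 1 higher of 20. Kmo, an enzyme of tryptophan breakdown, fell by 1.04, the growth factor receptor Flt3 by 0.39 and the bundling protein Fscn1 of mature dendritic cells by 0.42. The defining Xcr1 (0.00), Zbtb46 (0.03) and Itgax (-0.02) did not pass. Neutrophil genes had 4 lower of 20, with Lcn2 at -0.69 and Retnlg at -0.40 after Mmp8, and S100a8 (-0.06), S100a9 (-0.12) and Mpo (-0.14) not passing. Of 15 mast cell and basophil genes 6 fell and 1 rose. The rise was that of Fcer1a (0.41), the IgE receptor chain described above. The basophil proteases Prss34 (-0.95) and Mcpt8 (-0.85) led the falls, and histidine decarboxylase Hdc fell by 0.42. The mast cell proteases Cpa3 (0.00), Tpsb2 (-0.06) and Mcpt4 (0.00) did not pass. Of 20 erythroid genes 6 fell and 1 rose. The haem synthesis enzyme Alas2 fell by 0.84, the anion exchanger Slc4a1 by 0.79 and Car2 by 0.77, whereas the transferrin receptor Tfrc rose by 0.32. Platelet genes had 7 lower of 12, led by Pf4 (-0.81), and 1 higher, the thrombin receptor F2rl2 (0.31), whose call was lost in 5 of the 6 fits that left out 1 array; 4 were lower without wild-type replicate 2 or 3. In the stromal and endothelial list 4 of 17 fell, by at most 0.37 (Sparc).

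T cell genes moved the other way. Of 13 CD4 T cell genes 12 rose, with a median of 0.52 and a mean level of 11.28 to 11.36 in wild type and 11.74 to 11.78 in CD69-/-. Thy1 rose by 0.60, the costimulator Icos by 0.56 and Cd4 by 0.37; Trat1 (0.01) did not pass. Of 6 CD8 T cell genes 5 rose and 1 fell. Cd8a was at 11.30, 11.27 and 11.21 in wild type and at 11.92, 11.82 and 11.88 in CD69-/-, Cd8b1 rose by 0.43, and Eomes, a factor of memory CD8 T cells and natural killer cells, fell by 0.23. The list of gamma-delta T cell and innate lymphoid genes had 2 higher and 2 lower of 7, and its mean level overlapped between the groups (9.08 to 9.13 against 9.09 to 9.12). The part that these shifts in B cell, myeloid, erythroid, CD8 and CD4 genes have in the T cell results that follow was not tested.

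**Figure D4:**
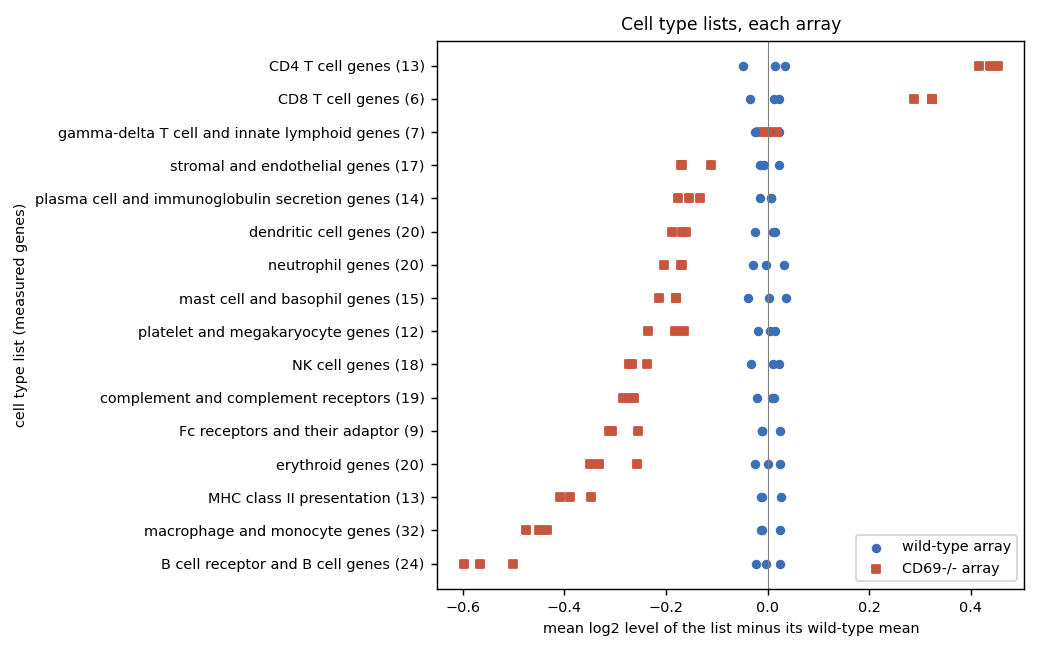
Mean log2 level of each cell type list in each array minus the list's wild-type mean, with the number of measured genes in brackets; circles are wild-type and squares CD69-/- arrays. The CD69-/- arrays lie to the right for the CD4 and CD8 T cell lists, on top of wild type for the gamma-delta and innate lymphoid list, and to the left for the other lists, farthest for B cell genes.

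Among genes of the T cell receptor complex and its first signalling steps 24 of 35 rose and 2 fell (median 0.34). The costimulatory receptor Cd28 rose most, from 11.41, 11.46 and 11.41 to 12.09, 11.98 and 12.07. Of the receptor's signalling chains, Cd3d rose by 0.58, Cd3e and Cd3g by 0.37 each and Cd247, the zeta chain, by 0.32. Downstream, the kinase Zap70 rose by 0.46, the adaptors Lat and Lcp2 by 0.35 and 0.34, the phospholipase Plcg1 by 0.45 and the kinase Prkcq, which leads to NF-kappaB, by 0.39. Proteins that dampen the signal rose with them: Sit1 by 0.59, Cd5 by 0.52, Ubash3a by 0.47 and Ptpn22 by 0.29. Both falls were of inhibitors of the signal, the kinase Csk (-0.15) and the phosphatase Ptpn6 (-0.19). Only 1 of them fell after median centring and when any 1 array but wild-type replicate 3 was left out. Vav1 (-0.05), Rasgrp1 (0.04), Cblb (0.09) and Ptprc, encoding CD45 (0.02), did not pass.

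TNF family ligands, which T cells use to help, kill or inflame, rose in 9 of 15 cases and fell in 0 (median 0.40). Tnf was at 10.03, 10.05 and 10.03 in wild type and at 10.73, 10.61 and 10.79 in CD69-/-, a difference of 0.67 (SE 0.053, adjusted p = 8.63e-06). Tnfsf8, the CD30 ligand, rose by 0.58, Cd40lg, the X-linked ligand that activates B cells, by 0.57, Tnfsf14, encoding LIGHT, by 0.56 and Fasl, the death ligand, by 0.42. Tnfsf4, encoding OX40 ligand (0.06), Cd70 (-0.10) and Tnfsf11, encoding RANKL (-0.24), did not pass. Among the receptors of this family 12 of 20 rose and 4 fell. The rises were of receptors found on activated T cells, among them Tnfrsf8, encoding CD30 (8.80, 8.81 and 8.80 against 9.48, 9.39 and 9.39), Tnfrsf4, encoding OX40 (0.52), Tnfrsf18, encoding GITR (0.49), Cd27 (0.52) and Fas (0.37). The falls were Cd40 (-0.30), Tnfrsf13b (-0.44) and Tnfrsf13c (-0.43), receptors on B cells for CD40 ligand and for BAFF, and Tnfrsf11a, encoding RANK (-0.20). The ligand Cd40lg and its receptor Cd40 thus had opposite signs.

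Secreted cytokines split, with 8 higher and 12 lower of 33 (5 higher without wild-type replicate 3). After Il21 and Il10, Il2, the growth factor of T cells, rose from 8.23, 8.31 and 8.10 to 8.87, 8.69 and 8.91, and Ifng, the macrophage-activating cytokine of type 1 helper cells, from 11.67, 11.68 and 11.66 to 12.07, 12.06 and 12.22. Lif rose by 0.31. Il4, the cytokine of type 2 helper cells, did not pass (0.14, groups overlapping), and its partners Il5 (-0.26) and Il9 (-0.98) fell. Il9 varied in wild type, at 7.84, 8.23 and 7.55, and lay at 6.98, 6.74 and 6.99 in CD69-/-. Il17a (-0.13) and Il17f (-0.26) fell, as did Csf2, encoding GM-CSF (-0.37). The interleukin-1 genes of myeloid cells fell together: Il1a by 0.94, Il1b by 0.50 and the antagonist Il1rn by 0.39.

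Receptor chains for cytokines had 15 higher and 8 lower of 36. Il18r1 and Il18rap, both chains of the interleukin-18 receptor, rose by 0.77 and 0.51, and Il12rb2 and Il12rb1, both chains of the interleukin-12 receptor, by 0.59 and 0.52; these are the receptors of type 1 helper cells. Il12rb2 was at 11.95, 11.99 and 11.90 against 12.55, 12.51 and 12.54. Of the interleukin-2 receptor, Il2rb rose by 0.52 and Il2ra by 0.31. Il7r (0.43) and Il6ra (0.40) rose. The falls were led by Il5ra (-0.93), Csf2rb (-0.89) and its near copy Csf2rb2 (-0.71), chains through which interleukin-3, interleukin-5 and GM-CSF act on myeloid cells and eosinophils, and by Il10ra (-0.48), while its ligand Il10 had risen. Csf2rb was at 10.55, 10.57 and 10.56 in wild type and 9.67, 9.65 and 9.70 in CD69-/-.

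Granule proteins and their inhibitors rose in 10 of 24 cases and fell in 1. Beyond the leading members, the pore-forming Prf1 rose by 0.53 (9.46, 9.41 and 9.33 against 9.93, 9.90 and 9.94), Gzmk and Nkg7 by 0.43 each, and the docking proteins Rab27a, Unc13d and Stx11 by 0.38, 0.28 and 0.23. Granzymes of the Gzmb cluster did not follow it: Gzmc (-0.09), Gzmd (0.04), Gzme (-0.09), Gzmf (-0.04) and Gzmg (-0.10) did not pass. Gzma (0.24) and Gzmm (0.00) did not pass. Ctsc, which activates granzymes, fell by 0.14.

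Transcription factors of T cell lineages and differentiation had 19 higher and 8 lower of 39 (median 0.10). Those of several helper lineages rose side by side: Tbx21 of type 1 cells by 0.35, Gata3 of type 2 cells by 0.41, Foxp3 of regulatory cells, an X-linked gene, by 0.40, and Maf and Ahr by 0.30 and 0.31. Irf4 and Batf, which act together at the onset of effector genes, rose by 0.50 and 0.42; Irf4 was at 10.57, 10.58 and 10.55 against 11.10, 11.05 and 11.06. Prdm1, which favours terminal effector cells, rose by 0.26, and Bcl6, its opponent in follicular helper cells, did not pass (-0.03). Lef1 (0.25) and Satb1 (0.17), known from developing and resting T cells, rose and Bach2 (-0.16) fell. The larger falls were of Zeb2 (-0.56), Pou2af1 (-0.30), Irf8 (-0.23) and Eomes (-0.23).

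Signalling genes were taken in 4 lists. Of 20 STAT, SOCS and JAK genes 3 rose (5 after median centring) and 2 fell: Cish (0.54), Socs3 (0.31) and Stat5a (0.26) were higher, and Socs2 (-0.38) and Stat2 (-0.18) lower. Cish, a feedback inhibitor of interleukin-2 signalling, was at 10.31, 10.32 and 10.31 against 10.89, 10.76 and 10.91, and Socs2, which STAT5 also induces, was at 10.63, 10.63 and 10.57 against 10.18, 10.20 and 10.31. Immediate early and MAP kinase feedback genes had 12 higher and 2 lower of 28. Fosl2 (0.50), Junb (0.31), Egr1 (0.21) and Egr2 (0.20) rose and Jun (-0.04), Nr4a1 (0.04) and Dusp1 (0.06) did not pass. Leaving out wild-type replicate 1 or 3 made it 7 rises, and leaving out CD69-/- replicate 1 made it 6. NF-kappaB subunits and feedback inhibitors had 11 higher and 2 lower of 23, among them Traf1 (0.30), Tnip1 (0.30), Tnfaip3 (0.21), Nfkb2 (0.19) and Relb (0.17) higher and Rel (-0.18) and Birc3 (-0.12) lower; the fall count was 0 or 1 without any 1 array. In the BCL2 family the survival gene Bcl2 rose by 0.35 and the death genes Bmf and Bcl2l14 fell by 0.34 and 0.43, while Bcl2l11, encoding BIM (0.01), and Mcl1 (-0.08) did not pass.

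Receptors of egress and homing bear on the known action of CD69 on S1P1 protein. S1pr1, which encodes S1P1, was at 11.94, 11.97 and 11.92 in wild type and at 11.76, 11.62 and 11.74 in CD69-/-. The transcript was thus lower in all 3 arrays without CD69, by 0.24 (SE 0.045, adjusted p = 0.00357); surface protein was not measured. Klf2, the factor that drives S1pr1 transcription, fell by 0.54 (10.78, 10.75 and 10.74 against 10.16, 10.22 and 10.26), and S1pr4 and S1pr3 fell by 0.26 and 0.24. In the whole list 6 of 29 rose and 9 fell. The rises were of chemokine receptors of effector and skin- or tissue-homing T cells: Ccr8 by 0.76 (8.44, 8.44 and 8.41 against 9.17, 9.19 and 9.21), Cxcr6 by 0.59, Ccr2 by 0.51, Ccr4 by 0.41 and Cxcr3 by 0.34. Ccr6, carried by B cells and Th17 cells, fell by 0.77 and Cxcr5 of B cells and follicular helper cells by 0.18, while Ccr7 (0.07), the lymph node receptor, did not pass.

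Integrin chains had 9 higher and 3 lower of 24, with 5 higher without wild-type replicate 2 or CD69-/- replicate 2. Itgae, the CD103 chain of resident T cells, rose by 0.54 from 9.35, 9.27 and 9.19 to 9.88, 9.76 and 9.78, Itgb8, which activates TGF-beta, by 0.53, and Itgal and Itgb2, both chains of LFA-1, by 0.32 and 0.27. Itga4, the chain for homing to inflamed tissue and gut, fell by 0.51. Inhibitory receptors split, with 11 higher and 7 lower of 19. The rises were of T cell receptors led by Lag3 (9.54, 9.41 and 9.34 against 10.26, 10.13 and 10.24), Havcr2, encoding TIM-3 (0.71), Tigit (0.59) and Ctla4 (0.59), and included Pdcd1, encoding PD-1 (0.38). The 3 wild-type values of Havcr2 were identical, at 8.19. The larger falls were of the B cell and myeloid receptors Siglecg (-0.71), Cd72 (-0.50), Pilra (-0.50) and Cd22 (-0.42), and Btla, which both B and T cells carry, fell by 0.31.

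Chemokines had 7 higher and 10 lower of 30. Ccl4 rose by 0.76 (8.59, 8.54 and 8.46 against 9.33, 9.24 and 9.29), Ccl3 by 0.33, Ccl5 by 0.30 and Ccl1 by 0.32, chemokines that activated T cells secrete, and Cxcl10, induced by interferon, rose by 0.63. Cxcl9, another interferon-induced chemokine, fell by 0.34. Cxcl2, Ccl6 (-1.0), Pf4 and Cxcl3 (-0.81) led the falls, followed by Ccl22 (-0.70) and Ccl17 (-0.66), ligands of Ccr4 made by dendritic cells. The receptor Ccr4 and both of its ligands thus had opposite signs.

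**Figure D5:**
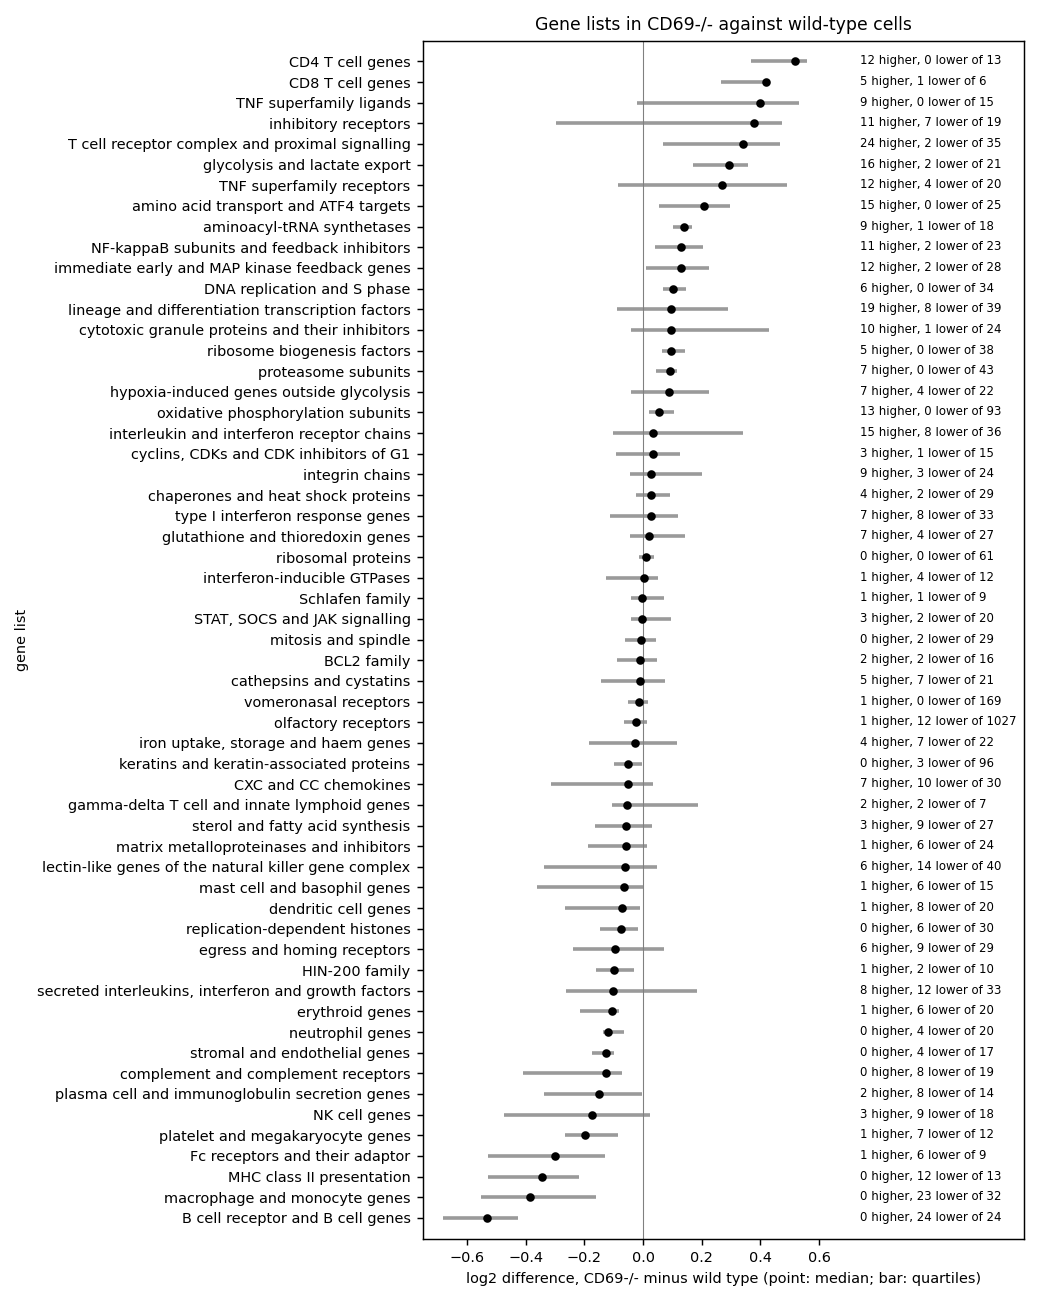
Median and quartiles of the log2 difference (CD69-/- minus wild type) over the measured genes of each list, with the number called higher and lower (limma, adjusted p under 0.05). The CD4 T cell list lies highest with a median of 0.52 and the B cell list lowest at -0.53, and lists of ribosomal proteins and of olfactory and vomeronasal receptors lie at or near 0.

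Interferon-related families did not share a direction. Type I interferon response genes had 7 higher and 8 lower of 33, with 12 higher and 5 lower after median centring. Ifit1 rose by 0.44 (9.88, 9.98 and 9.93 against 10.35, 10.32 and 10.44), Oas3 by 0.42 and the deconjugating enzyme Usp18 by 0.40, whereas Samd9l (-0.43), Oas2 (-0.41) and Cmpk2 (-0.36) fell. Of 10 measured HIN-200 genes, DNA sensors that lie in 1 cluster, Ifi208 and Ifi203 (-0.31) fell and Ifi206 rose by 0.17, and without CD69-/- replicate 3 the falls numbered 4. Ifi208 was at 10.34, 10.54 and 10.65 in wild type and 8.72, 8.71 and 8.79 in CD69-/-, while Ifi207, a near copy, had a difference of 0.32 that did not pass. In the Schlafen family Slfn5 fell by 0.55 (10.50, 10.54 and 10.49 against 9.97, 9.93 and 9.97), and the T cell members Slfn1 (0.07) and Slfn2 (0.00) did not pass.

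Proteases of the matrix and of lysosomes moved in both directions. Matrix metalloproteinases and their inhibitors had 6 lower and 1 higher of 24; after Mmp12 and Mmp8 came Mmp13 (-0.57) and Mmp25 (-0.42), and the inhibitor Timp2 rose by 0.32. Among cathepsins and cystatins 5 rose and 7 fell of 21 (4 falls after median centring and when wild-type replicate 2, CD69-/- replicate 1 or CD69-/- replicate 2 was left out). After Ctsw and Cst7, Ctsd rose by 0.42, and Ctsh (-0.55), Ctsz (-0.27) and the cystatin Cst3 (-0.23) fell.

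Of 21 glycolytic genes 16 rose and 2 fell (median 0.29), and their mean level was 10.39 to 10.45 in wild type and 10.64 to 10.66 in CD69-/-. Activated T cells take up glucose and release lactate, and members from entry to exit were higher. At entry, the glucose transporters Slc2a3 and Slc2a1 rose by 0.30 and 0.19 and Hk2 by 0.29. In the pathway, Tpi1 rose by 0.47 (10.83, 10.88 and 10.80 against 11.28, 11.28 and 11.35), Pkm by 0.43 and Aldoa by 0.31. At exit, Ldhb rose by 0.55, Ldha by 0.17, and the lactate carriers Slc16a1 and Slc16a3 by 0.41 and 0.36. Pfkfb3 (-0.20) and Aldoc (-0.22) fell, and the count of falls was 1 when wild-type replicate 1 or 2 or CD69-/- replicate 2 or 3 was left out. Hypoxia-induced genes outside glycolysis had 7 higher and 4 lower of 22 (2 lower after median centring, after cyclic loess, and with CD69-/- replicate 2 or any 1 wild-type array left out). Egln3, the oxygen-sensing hydroxylase, led with 0.73, while Vegfa (0.10) and Car9 (0.05) did not pass.

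Genes of amino acid supply rose as well. Of 25 transporters and ATF4 targets 15 rose and 0 fell (median 0.21), among them the neutral amino acid carriers Slc1a4 (0.38) and Slc7a5 (0.34), the folate enzyme Mthfd2 (0.36), asparagine synthetase Asns (0.30) and the serine pathway gene Phgdh (0.24); Atf4 itself (0.06) did not pass. Slc1a4 was at 8.77, 8.68 and 8.45 against 9.06, 8.99 and 8.98. Aminoacyl-tRNA synthetases rose in 9 of 18 cases, led by Yars (0.24), and Wars, which interferon-gamma induces, fell by 0.26. The 9 became 5 after cyclic loess and without wild-type replicate 1 or CD69-/- replicate 2, and 4 without wild-type replicate 3 or CD69-/- replicate 1. In glutathione and thioredoxin metabolism 7 rose and 4 fell of 27 (4 rose without wild-type replicate 3, or without CD69-/- replicate 1 or 3). Slc7a11, the cystine importer, fell by 0.90, from 8.94, 8.86 and 8.89 to 7.81, 8.05 and 8.11, and Mgst1 by 0.65, whereas Gsr (0.31), Gpx4 (0.26) and Gclm (0.25) rose.

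Lipid and iron genes moved in both directions. Sterol and fatty acid synthesis had 9 lower and 3 higher of 27. Scd1, the desaturase that makes oleate, fell by 0.79 from 13.00, 13.08 and 13.06 to 12.12, 12.29 and 12.36, Fads2 by 0.49, and Elovl6, which lengthens fatty acids, rose by 0.56. The fall count was 5 after median centring and without CD69-/- replicate 3, and 3 without wild-type replicate 1 or 2 or CD69-/- replicate 1 or 2. Of the sterol genes Sqle (-0.18), Fdft1 (0.05) and Lss (-0.04) did not pass and Idi1 (-0.22) and Insig1 (-0.22) fell. Iron and haem genes had 4 higher and 7 lower of 22 (3 lower without CD69-/- replicate 2 and 4 without CD69-/- replicate 3; 2 higher after cyclic loess and without wild-type replicate 3 or CD69-/- replicate 1 or 2). The importer Slc11a2 (0.36) and Tfrc rose, and the macrophage recycling genes Hmox1 (-0.46), Slc40a1 (-0.44) and Blvrb (-0.56) fell.

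Housekeeping and cell cycle lists lay nearer to the background share of all genes, which was not matched for level. Oxidative phosphorylation subunits rose in 13 of 93 cases, a count that was 20 after median centring, 6 after cyclic loess and 4 to 8 without any 1 array. Of 43 proteasome subunits 7 rose (15 after median centring, 2 to 6 without any 1 array), and of 38 ribosome biogenesis factors 5 rose, Myc (0.24) among them (16 after median centring, 3 to 6 without any 1 array). None of 61 ribosomal protein genes was called, and their mean level overlapped (12.07 to 12.10 in wild type, 12.09 to 12.10 in CD69-/-); by other settings the rises numbered at most 4, after median centring. Of 34 replication genes 6 rose (13 after median centring, 2 to 4 without any 1 array), with Chaf1b at 0.31 and Mcm5 at 0.18, and Pcna (0.07) not passing. Of 29 mitotic genes 0 rose and 2 fell, Cenpa (-0.32) and Aurkb (-0.27), and Mki67 (-0.05) and Top2a (-0.03) did not pass; after median centring 3 rose, and without any 1 array but wild-type replicate 3 the falls numbered 1. The cyclins Ccnd2 (0.19) and Ccnd3 (0.23) rose, and 6 of 30 histone genes fell. Chaperones had 4 higher and 2 lower of 29 (7 higher after median centring, 1 after cyclic loess, 0 to 2 without any 1 array). Families with no known role in these cells had few calls. Of 1027 olfactory receptor genes 1 was higher and 12 lower (1.27%, with 2 and 4 after median centring and up to 22 lower under the other settings). Of 169 vomeronasal receptor genes 1 was higher (0.592%). Of 96 keratin genes 3 were lower (3.12%, with 0 after median centring and up to 9 under the other settings). The receptor families were dim, with list means of 5.16 to 5.20 (olfactory) and 4.70 to 4.74 (vomeronasal). In the dimmest class of all genes 0.953% were called.

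The share of called genes differed with the level. Genes were ranked by mean level and cut into 10 classes of equal size: 0.953% were called in the dimmest class and 27.5% in the brightest. The direction changed with level: in the fourth class from the bottom 35 genes were higher and 120 lower, and in the seventh 366 were higher and 139 lower. X-linked genes had 46 higher and 41 lower of 739 (11.8%), below the background share, and of 8 measured genes that escape X inactivation Kdm6a (-0.51), Kdm5c (-0.36), Eif2s3x (-0.26) and Xist fell. Chromosome 6, with Cd69, had 196 of 1099 called (17.8%), and no other autosome had more than 18.5% (chromosome 19) or fewer than 12.1% (chromosome 2). Of the 999 genes with more than 1 probe set 206 had 1 or more called, 70 had every probe set called in the same direction, and 1, Ect2l, had probe sets called in opposite directions. Among the genes described above, both probe sets of Pkm (0.43 and 0.34), Ldhb (0.55 and 0.42), Socs3 (0.31 and 0.31) and Socs2 (-0.38 and -0.26) had the same sign and were called.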

How the data were processed

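The data are 1-colour Affymetrix mouse gene arrays of total RNA. The submitters' processing notes name RMA, oligo and R 2.12.1 as the tools by which the authors made the deposited log2 expression values; RMA commonly normalizes arrays by quantiles and condenses probes by median polish, which compresses large differences, and no source used here gives its settings. The values carry no detection call. Median polish can return 1 value for several arrays: the 3 arrays of a group held the same value (within 1e-06) at 574 genes in wild type (14 called higher, 14 lower) and at 313 in CD69-/- (1 and 2), with Havcr2 and Klrk1 among the genes named by rule.

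Platform annotation gave 1 symbol for 21789 probe sets, several for 1621 and none for 12146; 21698 of the first were matched by gene ID to RefSeq's gene table, used for names, gene class and gene order only. A gene's brightest probe set stood for it. The deposited values went unchanged into limma 3.58.1 under R 4.3.3 (3 group means over all 9 arrays, eBayes; 6 residual and 4.78 prior degrees of freedom), two-sided, with Benjamini-Hochberg adjustment over all 19938 genes. The procedure was tested on simulated data. Lists (59) are described by counts and medians.

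By rule the named genes were Cd69, the 15 called genes that rose most and the 15 that fell most with groups apart (without sex-linked, predicted and small RNA genes and receptor segments), from each list up to 4 called members, by size, neighbours of Cd69, and members known to define a list. The members and lists were chosen with earlier results of these data known. The number of arrays limits the precision. Alternatives were a scaling by median centring or by cyclic loess, tests without the dimmest genes, on every probe set, on the mean of a gene's probe sets, on only the 6 arrays and without X and Y genes, a robust prior with an intensity trend, array weights, the replicate number as a block, a minimum of 1.5-fold (treat), and fits without each array. Figures were drawn with matplotlib 3.10.9.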

Additional observations from a re-analysis of the deposited data

Results flagged for a closer look

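Probe sets outside the comparison also differed from wild type, in both directions. In a fit of all 35556 probe sets, 154 of the 12146 with no gene symbol were higher in CD69-/- and 279 lower (3.57% called by limma at an adjusted p under 0.05), with differences from -1.67 to 5.22, and of the 1621 with several symbols 88 were higher and 65 lower (9.44%), from -3.66 to 0.79. At least 1.5-fold were 21 higher and 65 lower of those with no symbol, and 15 higher and 12 lower of those with several. In the same fit 10.5% of probe sets with 1 symbol were called. Their genes were not named here.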

How the results depend on the processing

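Cd69 kept its direction and call under all 17 alternatives (-2.48 to -2.65). Against 3018 calls (1667 higher, 1351 lower; 230 of at least 1.5-fold), requiring more than 1.5-fold within the test (limma's treat) left 45 calls, 13 higher and 32 lower. Median centring gave 2555 higher calls, and it shares 2738 genes with the 3018. The median difference over all genes was -0.01 as deposited and 0.02 after centring. Leaving out 1 array gave 2212 to 2463 calls, 1092 to 1374 higher and 968 to 1156 lower, and 214 to 250 of at least 1.5-fold; the lowest higher count, 1092, was without wild-type replicate 3. With the replicate number as a block 2609 genes were called, 2542 of them shared, but the numbers did not pair the samples (correlations of deviations 0.14, -0.03 and 0.07 for the 3 numbers). Of the 214 genes named by rule, 0 turned sign; calls were lost by 178 under treat, 7 after cyclic loess, 7 with the block, 4 with only the 6 arrays, 3 after centring, 1 with all probe sets and 13 to 19 without 1 array. Genes whose call was lost under another setting than treat include Fos, Spred2, Bcl2l1, Ifi206, Slc40a1, Aurkb and Il23r. The cause of these changes was not tested. Few dim genes were called, so differences at low signal may not have been detectable.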

Other observations

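Of 297 measured microRNA genes, whose probe sets read the precursor or the transcript that holds it, 1 was called higher and 14 lower (5.05%, limma, adjusted p under 0.05). Mir505 fell by 0.49 (mean 9.77 in wild type, 9.28 in CD69-/-, n = 3 each) and Mir15a, from the cluster that restrains BCL2, by 0.41, and Mir27a rose by 0.27. Long noncoding RNA genes had 10 higher and 33 lower of 675 (6.37%), none of 53 snoRNA genes was called, and 15.8% of 18552 protein-coding genes were. These shares were not set against genes of equal level.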
